A study of Mus musculus with 6 samples.

Results

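The MYC, MAX and MXD network was examined through 10 genes, Myc, Mycn, Max, Mxd1, Mxd3, Mxd4, Mxi1, Mnt, Mlx and Mga, taken by symbol from a table of 23359 gene symbols. All 10 were found, each on 1 row, and stood among the 9916 genes tested, those averaging 1 FPKM or more over the libraries. FPKM are fragment counts scaled to transcript length and library size, so levels can be compared between genes. Polyadenylated RNA came from samples labelled mouse bone marrow, 3 of Gab2 +/+ genotype (WT A, B and C) and 3 of Gab2 -/- genotype (NULL A, B and C). GAB2 is a docking protein downstream of growth factor receptors and of BCR-ABL1, and the series concerns its part in transformation by that oncoprotein. For strain, age, sex and any treatment nothing is given in the sources used here.

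The proteins of this network are transcription factors that pair through a helix-loop-helix and leucine zipper. MYC and MYCN pair with MAX, bind the E-box CACGTG and activate genes of growth, ribosome building and metabolism, while the MXD proteins (MXI1 among them) and MNT compete for MAX and recruit SIN3 corepressors to the same sites. MGA also pairs with MAX and belongs to a Polycomb complex, and MLX is a MAX-like partner of MNT, of some MXD proteins and of the nutrient sensor MondoA. In B-cell precursors MYC and MYCN drive the proliferative phases, and MXD genes other than Mxd3 are known for expression in cells that leave the cycle.

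Gab2 itself read 2.43 to 3.33 FPKM in the WT libraries and 0.123 to 0.203 FPKM in the NULL libraries. Depth, judged from the spacing of low values, was roughly 17200000 to 66800000 fragments, an approximation that supports no counting interval. Of 15 B-lineage markers 14 averaged 1 FPKM or more, and their sum was 2299 to 2548 FPKM in WT and 3638 to 3825 FPKM in NULL. Of 12 neutrophil markers 0 reached that mean, with Elane, S100a8 and S100a9 at 0 in every library and sums of at most 0.186 FPKM in WT and 0.326 FPKM in NULL. The samples thus lacked the defining granulocyte transcripts of whole bone marrow. The monocyte list summed to 1.91 to 2.87 FPKM in WT and 8.44 to 9.67 FPKM in NULL, with Itgam and Lyz2 above the filter and Cd14 at 0 throughout. The T and NK list summed to 20.8 to 22.7 FPKM in WT and 96.2 to 103.6 FPKM in NULL, nearly all of it Lat, with Cd4 at 0 in every library. Sums in WT and NULL were 275.8 to 359.7 and 159.2 to 183.8 FPKM for the erythroid list, which was mostly Tfrc, with Hba-a1, Hba-a2 and Slc4a1 at 0 throughout. Hbb-b1 set WT C apart, where it reached 58.7 FPKM, compared with 8.31 (A) and 7.21 FPKM (B), and at most 0.000359 FPKM in NULL. Other sums were 229.6 to 257.4 and 229.1 to 244.2 FPKM for the plasma cell list, 10.6 to 11.7 and 24.7 to 25.6 FPKM for the stroma and endothelium list, 0.292 to 0.454 and 0.989 to 1.43 FPKM for the megakaryocyte list, and 0.155 to 0.337 and 1.007 to 1.44 FPKM for the stem and progenitor list. Among the 8 stroma and endothelium genes only Pecam1 averaged 1 FPKM or more. In every library 6 of the 8 read below 0.1 FPKM, with Col1a1 and Col1a2 at 0. Among the 7 plasma cell genes Xbp1, Irf4, Sdc1 and Mzb1 reached that mean. The part of these markers in the results was not tested. In bulk RNA a change in the share of cells that express a gene and a change in RNA per cell cannot be told apart.

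The test was limma on log2(FPKM + 1), which understates changes of weakly expressed genes, with Benjamini-Hochberg adjustment over all 9916 genes. At a threshold of 0.05 on the adjusted p it called 65.3% of them, of which 23.3% of all genes were higher in NULL and 42.0% lower, and the 2 groups' values did not overlap in 71.0%. A call is therefore the common state here, and sizes carry more than calls. This split depended on library scaling. It became 31.7% higher and 32.7% lower with median-of-ratios factors, 28.5% and 33.1% when quantiles were made equal, 20.4% and 10.1% when library sums were made equal (equal totals, plotted as common total), and 45.2% and 20.6% when those sums left out small RNA genes. Over the 9916 genes the median log2 change was -0.13 as deposited and 0.0098, -0.030, 0.11 and 0.20 under these 4 rescalings, against which changes of members are to be read.

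Of the 10 network genes 4 were called higher (Mycn, Mxd1, Mxd4 and Mnt) and 4 lower (Myc, Max, Mxi1 and Mlx). These 8 did not overlap between the groups. Over all genes 65.3% were called (23.3% higher and 42.0% lower) and 71.0% did not overlap. The median log2 change of the 10 was 0.014. The 4 that rose, among them Mnt, which was tested only because of its NULL values, were called higher under all 4 rescalings. The 4 that fell were not: Max was still called under 2, Myc and Mxi1 under 1 each and Mlx under 0. The network genes called were 6 with median-of-ratios factors (64.4% of all genes called), 6 with equal quantiles (61.5%), 4 with equal totals (30.5%) and 5 with equal totals without small RNA (65.8%). The antagonist Mxd4 changed most, by 2.20 on the log2 scale, and only 42 of the 9916 genes (0.424%) rose more.

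**Figure D1:**
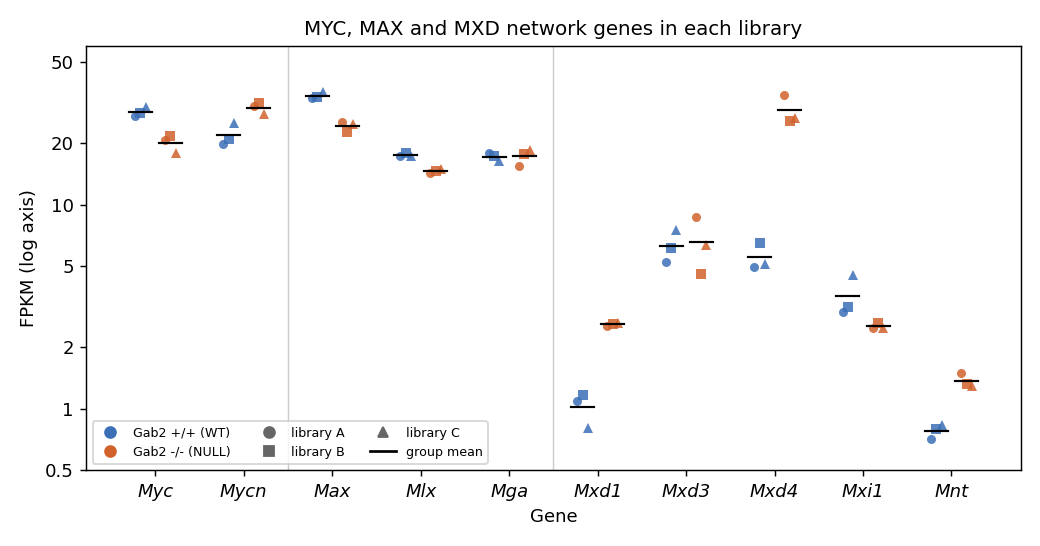
FPKM (log axis) of the 10 network genes in each library, WT in blue and NULL in orange, with 1 point per library, marker shapes for the letters A, B and C, and a black line at each group mean. Mxd4 sits between 4.98 and 6.46 FPKM in WT and between 25.9 and 34.4 FPKM in NULL, whereas Mxd3 and Mga overlap between the groups.

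The activators moved in opposite directions. Myc, the broadly expressed activator (chromosome 15, 61985391 to 61990374, plus strand of GRCm38), measured 27.3, 28.2 and 30.0 FPKM in the WT libraries and 20.8, 21.7 and 17.9 FPKM in the NULL libraries, in the order A, B, C used throughout. Every NULL library lay below every WT library. The means were 28.5 ± 1.38 and 20.2 ± 1.98 FPKM (SD, n = 3 each), with a log2 change of -0.48 (SE 0.084, limma adjusted p = 0.00150). The change was -0.33 with median-of-ratios factors (limma adjusted p = 0.0105), but the call was lost with equal quantiles (-0.22) and with equal totals (-0.21, and -0.12 without small RNA).

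Mycn, the paralogue known from embryonic tissue and from early lymphoid precursors (chromosome 12, 12936093 to 12941914, minus strand), read 19.9, 21.1 and 25.1 FPKM in WT and 30.5, 31.4 and 27.8 FPKM in NULL. Here each NULL library lay above each WT library, with WT C nearest to them. The means were 22.04 ± 2.76 and 29.9 ± 1.88 FPKM (SD, n = 3 each), and the log2 change was 0.43 (SE 0.097, limma adjusted p = 0.00545) and between 0.58 and 0.80 under the 4 rescalings. The sum of Myc and Mycn was 47.2, 49.3 and 55.2 FPKM in WT and 51.3, 53.2 and 45.7 FPKM in NULL, so the sums overlapped. What shifted was the make-up of the sum. The ratio of Mycn to Myc within a library, which no rescaling of a library by a single factor changes, was 0.727, 0.749 and 0.838 in WT and 1.46, 1.45 and 1.55 in NULL, without overlap.

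The shared partner Max and the related Mlx were lower in NULL on the deposited scale. Max (chromosome 12, 76937269 to 76962201, minus strand) encodes a partner with which MYC and the MXD proteins bind DNA as pairs. It read 33.3, 33.8 and 35.6 FPKM in WT and 25.5, 22.8 and 24.8 FPKM in NULL. The groups were well apart, at 34.2 ± 1.21 and 24.4 ± 1.42 FPKM (SD, n = 3 each), with a log2 change of -0.47 (SE 0.067, limma adjusted p = 0.000535). The call held with median-of-ratios factors (-0.32) and equal quantiles (-0.18) and was lost with equal totals (-0.20, and -0.10 without small RNA). Max and Myc fell by nearly the same factor, so that the ratio of Myc to Max was 0.821, 0.835 and 0.844 in WT and 0.815, 0.953 and 0.724 in NULL, with overlap.

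Mlx (chromosome 11, 101087277 to 101092207, plus strand) read 17.2, 17.9 and 17.3 FPKM in WT and 14.4, 14.6 and 14.9 FPKM in NULL. The difference was small next to that of Max, a log2 change of -0.24 (SE 0.057, limma adjusted p = 0.00632). The call was lost under each of the 4 rescalings, and the change turned to 0.022 with equal totals and to 0.12 without small RNA. Mlx overlaps Psmc3ip on the opposite strand, and Psmc3ip was lower in NULL too (10.9 ± 0.781 and 6.25 ± 0.928 FPKM, SD, n = 3 each). The sources used here do not give whether strand was used in quantification, so reads of such overlapping genes may not be told apart. Mga (chromosome 2, 119897228 to 119969581, plus strand), the MAX partner in Polycomb complex PRC1.6, read 17.8, 17.2 and 16.5 FPKM in WT and 15.5, 17.8 and 18.5 FPKM in NULL. Its values overlapped, and the 95% interval of its log2 change ran from -0.18 to 0.19, although it was called higher with equal totals without small RNA (0.37, limma adjusted p = 0.0192).

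Among the antagonists Mxd4, Mxd1 and Mnt rose, Mxi1 was lower as deposited and Mxd3 was not called. Mxd4 (chromosome 5, 34173883 to 34187720, minus strand), an MXD protein associated with cell-cycle exit, read 4.98, 6.46 and 5.14 FPKM in WT and 34.4, 25.9 and 26.7 FPKM in NULL. The lowest NULL library was thus far above the highest WT library. Its means were 5.53 ± 0.813 and 29.0 ± 4.73 FPKM (SD, n = 3 each), 5.25 times higher in NULL, with a log2 change of 2.20 (SE 0.130, limma adjusted p = 1.83e-05) and of 2.34 to 2.54 under the 4 rescalings. GENCODE lists an antisense gene over Mxd4, Gm42846, which was not analysed here.

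Mxd1, the antagonist known for its induction in differentiating blood cells (chromosome 6, 86647042 to 86669161, minus strand), read 1.10, 1.16 and 0.807 FPKM in WT and 2.56, 2.59 and 2.64 FPKM in NULL. It stayed a weakly expressed gene, but its group means of 1.02 ± 0.189 and 2.60 ± 0.0419 FPKM (SD, n = 3 each) differed 2.54 times. The log2 change was 0.84 (SE 0.089, limma adjusted p = 0.000134) and 0.71 to 1.07 under the 4 rescalings. Mnt (chromosome 11, 74830920 to 74845725, plus strand), a broadly expressed antagonist that also pairs with MLX, read 0.711, 0.796 and 0.831 FPKM in WT and 1.505, 1.32 and 1.30 FPKM in NULL. All 3 WT values lay under the filter of 1 FPKM, so Mnt was tested only because of its NULL values, and without NULL A it was not tested. Its log2 change was 0.42 (SE 0.080, limma adjusted p = 0.00242).

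Mxi1 and Mxd3 did not share this rise. Mxi1 (chromosome 19, 53310518 to 53375810, plus strand), the MXD family member also named Mxd2, read 2.99, 3.15 and 4.53 FPKM in WT and 2.47, 2.63 and 2.49 FPKM in NULL. WT C stood above the other WT libraries, and the log2 change was -0.35 (SE 0.126, limma adjusted p = 0.0395) with all libraries and -0.20 without WT C. The call was lost without NULL A, B or C (limma adjusted p between 0.0769 and 0.0976) and under 3 of the 4 rescalings. Mxd3 (chromosome 13, 55325168 to 55329823, minus strand), the family member known for expression in dividing S-phase cells, read 5.27, 6.11 and 7.51 FPKM in WT and 8.70, 4.58 and 6.38 FPKM in NULL. The groups overlapped fully, and the 95% interval of the log2 change, -0.44 to 0.49, spans changes of either sign. Mxd3 overlaps the much more abundant Prelid1 on the opposite strand (159.8 ± 39.9 FPKM in WT and 90.2 ± 8.04 FPKM in NULL, SD, n = 3 each).

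**Figure D2:**
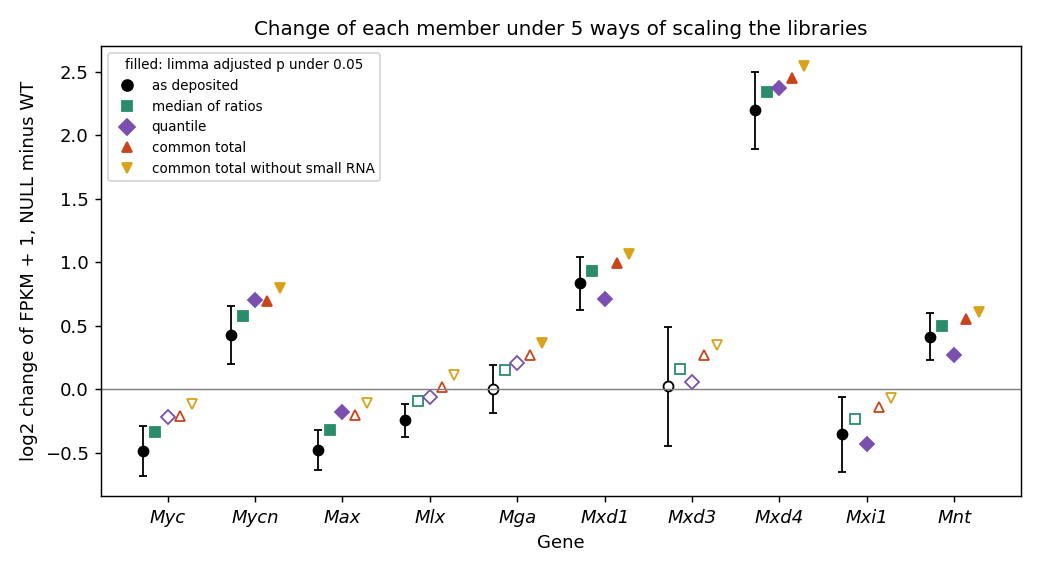
Change of each network gene as log2(FPKM + 1), NULL minus WT, on the deposited scale (black, with 95% intervals from limma) and under 4 rescalings (colours), with filled markers for a limma adjusted p under 0.05. Mycn, Mxd1, Mxd4 and Mnt lie above 0 and are filled throughout, while Myc, Max, Mlx and Mxi1 approach 0 or cross it under some rescalings.

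The balance of activators and antagonists moved towards the antagonists in every NULL library. The 5 antagonists summed to 15.04, 17.7 and 18.8 FPKM in WT and 49.7, 37.0 and 39.5 FPKM in NULL. Myc and Mycn together stood at 3.14, 2.79 and 2.93 times the antagonists in WT and at 1.03, 1.44 and 1.16 times in NULL. These ratios did not overlap, and their means were 2.95 ± 0.176 and 1.21 ± 0.207 (SD, n = 3 each). With each gene counted equally on the log2(FPKM + 1) scale, the log2 difference between NULL and WT in this balance was -0.65, against -1.30 for the ratio of summed FPKM. The ratio of sums is the same under any rescaling by a single factor per library, which quantile normalization is not. No p is given for this sum over chosen genes, and for a single value an exact permutation test of 3 libraries against 3 cannot give less than 0.1.

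Mxd4 carried nearly the whole shift. It made up 33.1%, 36.5% and 27.3% of the antagonist FPKM in WT and 69.3%, 69.9% and 67.6% in NULL. Without Mxd4 the other antagonists summed to 10.1, 11.2 and 13.7 FPKM in WT and 15.2, 11.1 and 12.8 FPKM in NULL, with overlap, and the ratio of activators to them was 4.37 ± 0.330 in WT and 3.90 ± 0.761 in NULL (SD, n = 3 each). Mxd1 and Mnt, though raised, stayed among the least abundant antagonists.

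Set against the common partner, the MAX-binding factors were more abundant in NULL. The 8 genes whose products pair with MAX summed to 2.41, 2.49 and 2.54 times the Max FPKM in WT and to 4.56, 4.73 and 4.18 times in NULL. Of that sum Myc held 33.6 ± 0.473% in WT and 18.4 ± 1.497% in NULL, whereas Mycn held 25.9 ± 1.66% and 27.4 ± 1.55% (SD, n = 3 each). Mxd4 went from 6.52 ± 1.03% to 26.4 ± 2.86%, close to the share of Mycn. Transcript levels do not give protein levels, which were not measured here.

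**Figure D3:**
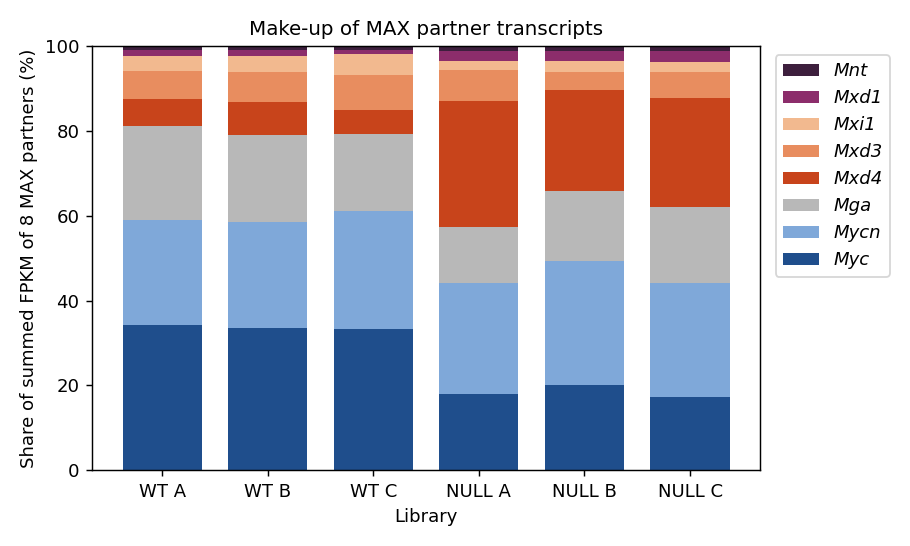
Share (%) of the summed FPKM of 8 MAX partners held by each gene, with 1 stacked bar per library. Mxd4 (dark orange) takes 5.69% to 7.67% of the sum in WT and 24.0% to 29.6% in NULL, and Myc (dark blue) 33.2% to 34.1% and 17.3% to 20.1%.

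The order of levels changed with these shifts. In WT it was Max, Myc, Mycn, Mlx, Mga, Mxd3, Mxd4, Mxi1, Mxd1 and Mnt, where Mlx and Mga, Mxd3 and Mxd4, and Mxd1 and Mnt overlapped as neighbours. In NULL it was Mycn, Mxd4, Max, Myc, Mga, Mlx, Mxd3, Mxd1, Mxi1 and Mnt, where Mycn and Mxd4, Myc and Mga, and Mxd1 and Mxi1 overlapped. Mxd4 thus moved from rank 7 to rank 2, and Max was no longer the most abundant transcript of the network.

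Start-site sequences are shown for the antagonists that rose together, Mxd4, Mnt and Mxd1, as the 250 bases before the RefSeq start on GRCm38.p6, with the E-box CACGTG in capitals. RefSeq windows were found for 9 of the 10 genes, and Myc had none. The windows lie at chr5:34187711-34187960 (minus strand, Mxd4), chr11:74830674-74830923 (plus strand, Mnt) and chr6:86669160-86669409 (minus strand, Mxd1).
Mxd4: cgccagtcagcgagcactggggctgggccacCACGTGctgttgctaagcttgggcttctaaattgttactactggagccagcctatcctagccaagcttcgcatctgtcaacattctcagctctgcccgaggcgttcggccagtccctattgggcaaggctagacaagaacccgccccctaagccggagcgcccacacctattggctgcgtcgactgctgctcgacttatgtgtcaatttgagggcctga
Mnt: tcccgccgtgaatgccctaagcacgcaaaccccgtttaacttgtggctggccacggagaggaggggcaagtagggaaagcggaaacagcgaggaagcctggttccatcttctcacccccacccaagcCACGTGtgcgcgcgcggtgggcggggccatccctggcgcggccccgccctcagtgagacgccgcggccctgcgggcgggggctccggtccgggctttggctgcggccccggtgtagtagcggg
Mxd1: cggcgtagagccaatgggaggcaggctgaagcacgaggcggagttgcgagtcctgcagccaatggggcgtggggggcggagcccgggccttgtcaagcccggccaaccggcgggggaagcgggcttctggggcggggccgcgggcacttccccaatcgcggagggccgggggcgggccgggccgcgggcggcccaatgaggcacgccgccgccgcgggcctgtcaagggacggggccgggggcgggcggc
The E-box stands at -219 to -214 in Mxd4 and at -123 to -118 in Mnt, counted from the start site, and not in the Mxd1 window. The partners also hold it, and 30 bases around it are given for Max (chr12:76962234-76962263, minus strand) and Mlx (chr11:101087238-101087267, plus strand).
Max: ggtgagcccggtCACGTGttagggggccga
Mlx: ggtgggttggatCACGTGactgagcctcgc
In Max it spans the start site (-3 to 3) and in Mlx it lies at -40 to -35. Windows of 300 bases (250 before and 50 after the start) held CACGTG, which reads the same on both strands, in 4 of 11 windows of the network genes and in 7.15% of all 32851 windows. Genes with the motif rose (Mxd4, Mnt) and fell (Max, Mlx). Searched on both strands, the FOXO motif GTAAACA was found in 1 Mxi1 window (3.65% of all windows) and the E2F motif TTTGGCGC in Mycn (0.514% of all windows). The E2F motif TTTCCCGC (1.07% of all windows) and the STAT5 motif TTCNNNGAA (8.30% of all windows) were found in 0 of the 11. A match describes letters and does not show binding.

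Genes known to be activated by MYC were lower in NULL almost throughout. Of 48 genes activated by MYC all were tested, 45 fell, 1 rose and 2 were not called, with a median log2 change of -1.13 against -0.13 over all genes, of which 42.0% were called lower. Under the 4 rescalings 31 to 44 of them were called lower and 1 or 2 higher. Of all genes 10.1% to 33.1% were then called lower and 20.4% to 45.2% higher. Ldha, the lactate dehydrogenase of glycolysis, read 558.3, 597.6 and 1096 FPKM in WT and 182.7, 140.8 and 175.3 FPKM in NULL. WT C was far above the other WT libraries, but all WT values exceeded all NULL values, and the call held without any single library. The chaperonin partner Hspe1 went from 245.7 ± 2.01 to 88.7 ± 2.94 FPKM, the ribosome assembly factor Mrto4 from 56.6 ± 3.51 to 19.1 ± 2.47 FPKM and the RAN-binding transport protein Ranbp1 from 259.6 ± 13.7 to 100.6 ± 16.1 FPKM (SD, n = 3 each). Tert, the telomerase catalytic subunit, rose against the list, from 0.984 ± 0.172 to 2.09 ± 0.0891 FPKM (SD, n = 3 each, limma log2 change 0.64). Its WT mean lay under the filter of 1 FPKM, so it was tested only because of its NULL values. Ccnd2 and E2f2 were not called as deposited, at log2 changes of -0.013 and -0.10 that turned positive under each of the 4 rescalings. Ccnd2 was called higher with equal quantiles and with equal totals without small RNA, whereas E2f2 gained no call.

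Most genes known to be repressed by MYC moved the other way. Of 18 such genes 14 were tested, and of these 11 rose, 0 fell and 3 were not called. Their median log2 change was 0.63, where 23.3% of all genes were called higher. Of those under the filter, Klf2 was lower in NULL without overlap (means 0.770 in WT and 0.418 FPKM in NULL). Ndrg2 (0.00311 and 0.233 FPKM) and Thbs1 (0.00537 and 0.532 FPKM) were higher, and Cebpa was near 0. Of the tested genes 11 or 12 were called higher and 0 lower under each rescaling. Of all genes 20.4% to 45.2% were then called higher and 10.1% to 33.1% lower. The antiproliferative genes Btg2 and Btg1 went from 5.23 ± 0.862 to 23.2 ± 1.15 FPKM and from 11.6 ± 1.39 to 37.6 ± 4.33 FPKM (SD, n = 3 each). The cell-cycle inhibitor Cdkn1a read 9.75, 10.5 and 6.70 FPKM in WT and 24.3, 23.2 and 22.9 FPKM in NULL. The HMG-box repressor Hbp1 rose from 13.4 ± 0.663 to 33.7 ± 2.44 FPKM, and Klf6 and Id2 rose by 0.98 and 0.82 on the log2 scale. These genes answer to many regulators, FOXO factors and p53 among them.

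MondoA, encoded by Mlxip and paired with MLX, was higher in NULL, unlike Mlx. Mlxip read 5.69, 6.49 and 4.78 FPKM in WT and 11.7, 11.8 and 10.8 FPKM in NULL, with a log2 change of 0.91 (95% interval 0.68 to 1.14, limma adjusted p = 0.000153). Each NULL library was above each WT library, and the ratio of Mlxip to Mlx went from 0.323 ± 0.0435 to 0.783 ± 0.0494 (SD, n = 3 each). Of 5 genes known as targets of MondoA and MLX 3 were tested. Hbp1, which is also in the list of genes repressed by MYC, and Txnip, a brake on glucose uptake, rose. Dak was not called. Beside this, 23.3% of all genes were called higher and 42.0% lower. Of the targets under the filter, Arrdc4 read at most 0.00771 FPKM. Pklr, also near 0, was lower in NULL without overlap (means 0.0464 in WT and 0.00524 FPKM in NULL). The remaining factors of the extended network, Mycl1 (at most 0.637 FPKM) and Mlxipl (at most 0.0142 FPKM), were under the filter.

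The split of the cofactor lists depended on scaling, and is to be read beside that of all genes (23.3% called higher and 42.0% lower). Over all genes it became 31.7% and 32.7% with median-of-ratios factors and 28.5% and 33.1% with equal quantiles. With equal totals it was 20.4% and 10.1%, and 45.2% and 20.6% without small RNA. Of 16 tested genes for SIN3 and NCOR corepressors, the machinery of MXD and MNT, 2 rose and 10 fell (median log2 change -0.39). The calls became 2 higher and 8 lower with median-of-ratios factors, 4 and 5 with equal quantiles, 2 and 2 with equal totals, and 6 and 4 without small RNA. The histone-binding subunit Rbbp7 went from 119.4 ± 8.04 to 51.7 ± 3.72 FPKM and Sap30 from 29.8 ± 5.68 to 13.4 ± 1.58 FPKM (SD, n = 3 each), while Arid4b and Arid4a rose by 0.45 and 0.36 on the log2 scale. Sin3a, the scaffold that MXD proteins bind, read 24.2, 23.3 and 22.04 FPKM in WT and 17.9, 17.8 and 17.6 FPKM in NULL, but lost its call under 3 of the 4 rescalings and turned positive with equal totals without small RNA. Sin3b, at 52.7 and 50.5 FPKM on average, was not called, but its small negative change turned positive under the 4 rescalings and was called higher with equal quantiles and with equal totals without small RNA. Of 17 MYC cofactors 5 rose and 8 fell as deposited, near the shares over all genes, with a median log2 change of -0.067 that turned to 0.082 with median-of-ratios factors. More were higher than lower under each rescaling, 8 against 5 with median-of-ratios factors and 7 against 5 with equal quantiles. The counts were 4 against 1 with equal totals and 9 against 4 without small RNA. In both of these, calls over all genes were more often higher than lower as well. The ATPase Ruvbl1 and the actin-like Actl6a of the TIP60 complex fell by 0.96 and 0.91 on the log2 scale, the latter not called with equal totals. The acetyltransferases Crebbp and Ep300 rose by 0.57 and 0.34.

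Among other subunits of the MGA complex 9 of 15 genes fell and 2 rose (median log2 change -0.42), where 42.0% of all genes were called lower and 23.3% higher. With median-of-ratios factors the calls became 2 higher and 7 lower (31.7% and 32.7% of all genes). They were 1 and 6 with equal quantiles (28.5% and 33.1%) and 2 and 2 with equal totals (20.4% and 10.1%). Without small RNA they were 4 and 5 (45.2% and 20.6%). Pcgf6, the subunit that defines PRC1.6, read 13.4, 12.4 and 12.4 FPKM in WT and 6.05, 5.54 and 6.81 FPKM in NULL. The heterochromatin protein Cbx3 and the E2F partner Tfdp1 fell by 0.93 and 0.84 (log2), Tfdp1 not with equal totals, and Tfdp2 rose by 0.64. Of 18 germline genes that this complex is known to silence, 16 were under the filter, and of the rest Stag3 went from 1.82 ± 0.143 to 0.985 ± 0.267 FPKM (SD, n = 3 each) and Zcwpw1 was not called. Stag3 passed the filter through its WT values, with a NULL mean under 1 FPKM.

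Genes that govern MYC protein stability fell in 10 of 16 cases and rose in 1 (median log2 change -0.30), beside 42.0% of all genes called lower and 23.3% higher. With median-of-ratios factors the calls became 2 higher and 7 lower (31.7% and 32.7% of all genes). They were 1 and 6 with equal quantiles (28.5% and 33.1%) and 1 and 3 with equal totals (20.4% and 10.1%). Without small RNA they were 4 and 4 (45.2% and 20.6%). Set, Aurka and Cip2a (listed as C330027C09Rik), whose products protect MYC from degradation, changed by -1.41, -1.03 and -1.04 (log2). The phosphatase gene Ppp2ca of the same list fell too, by 0.62. Its call was lost with equal quantiles and with equal totals, with or without small RNA. Skp2, a ubiquitin ligase subunit for MYC, fell by 0.69 but was not called with equal totals, and the MYC-destroying ligase Fbxw7 was not called as deposited, with a log2 change of 0.086, but was called higher with median-of-ratios factors and with equal totals without small RNA. Fbxo32, another ligase subunit that can act on MYC, rose from 0.539 ± 0.0403 to 2.52 ± 0.290 FPKM (SD, n = 3 each). All 3 of its WT values lay under the filter of 1 FPKM, so it too was tested only because of its NULL values.

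Transcription factors known to act on Myc in lymphoid cells rose in 10 of 18 tested cases and fell in 4 (median log2 change 0.29), beside 23.3% of all genes called higher and 42.0% lower. With median-of-ratios factors the calls became 10 higher and 3 lower (31.7% and 32.7% of all genes). They were 10 and 2 with equal quantiles (28.5% and 33.1%) and 9 and 0 with equal totals (20.4% and 10.1%). Without small RNA they were 13 and 2 (45.2% and 20.6%). Lef1, the nuclear partner of beta-catenin, read 18.5, 20.8 and 11.3 FPKM in WT and 42.6, 50.5 and 42.0 FPKM in NULL. The beta-catenin gene Ctnnb1 itself fell by 0.58 (log2), a call lost with equal quantiles and with equal totals. The FOXO and FOXP factors Foxo1, Foxo3 and Foxp1 rose by 0.78, 0.65 and 0.65 (log2), and the B-lineage factor Ebf1 by 0.94. Ikzf1, a repressor of Myc in pre-B cells, went from 45.8 ± 0.839 to 30.4 ± 0.332 FPKM (SD, n = 3 each), a call lost with equal totals, with or without small RNA. E2f1 fell by 0.54 and was not called with equal totals.

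**Figure D4:**
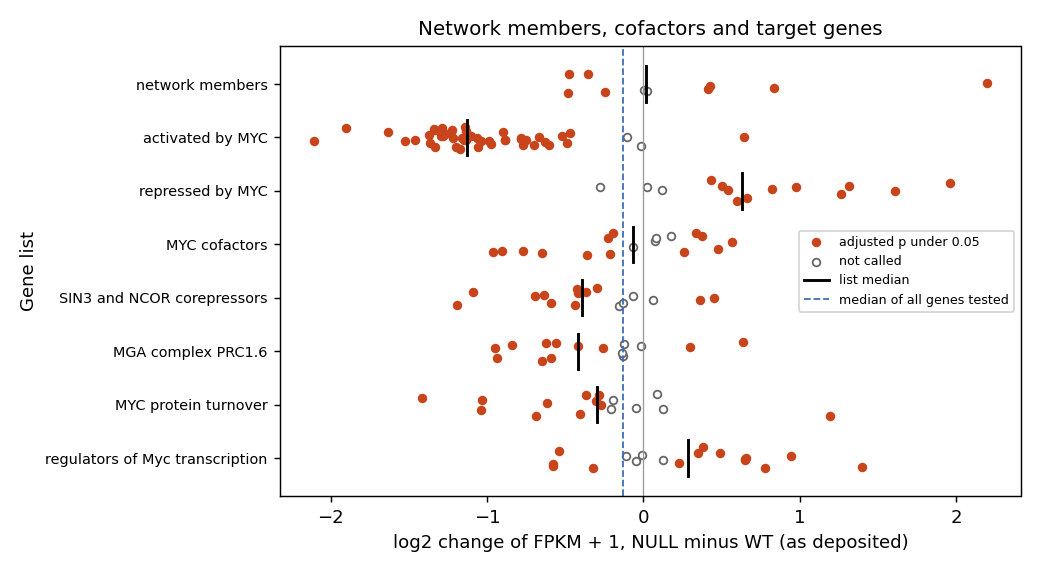
Change of each tested gene as log2(FPKM + 1), NULL minus WT, on the deposited scale, in the network and in 7 lists of cofactors, regulators and targets, with filled points for a limma adjusted p under 0.05, black bars at list medians and a dashed line at the median of all genes (-0.13). Genes activated by MYC lie left of that line but for a few, genes repressed by MYC mostly right of it, and the network itself spreads to either side.

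Profiles over the 6 libraries most like that of Myc, by the root mean square difference of centred log2 values, were those of 0610012G03Rik (0.033), Mta1 (0.042) and 2210015D19Rik (0.045). Those most like Mxd4 were Fam129c (0.0995), Ly6d (0.103) and Sytl1 (0.131). Ly6d, a surface protein of early B-lineage cells, read 71.9, 97.1 and 80.6 FPKM in WT and 471.1, 401.6 and 408.6 FPKM in NULL. Over 6 libraries in 2 groups such a measure mostly reads the group difference.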

How the data were processed

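Polyadenylated RNA was read by paired-end sequencing of stranded libraries, per the labels' protocols. The values are FPKM as deposited by the authors. Per the submitters' processing notes, Bowtie, Cufflinks, mm10 and GRCm38 were used, with no version or role listed. Neither annotation nor filters could be read from the labels. The series-wide table held 23848 rows and differed from the library tables in 0 values. Where a symbol was repeated (256 symbols) its highest-mean row was used.

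Values were analysed as log2(FPKM + 1) with limma 3.58.1 (R 4.3.3), keeping the 9916 genes whose average across libraries reached 1 FPKM. Moderation followed the mean-variance trend, tests were two-sided with 95% intervals, and Benjamini-Hochberg adjustment covered every gene kept (threshold 0.05). The limma fit was tested on simulated data in which a small share of genes changed and libraries did not differ in scaling. The choice of scaling was thus not tested. Count models were left out because FPKM are normalized. Since no label ties a library to an animal or culture, p-values here reflect only the spread among these samples, which may be technical. Positions are from GENCODE vM21 and promoter windows from RefSeq, GRCm38.p6. Depth was estimated from the commonest step among low values and the annotated transcript length less 150 bases.

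The members and gene lists were chosen with earlier results of these data known, so the direction of the MYC target lists is no independent evidence. The genes named are the 10 members, Gab2, and from each list up to 6 genes called in each direction with the largest absolute change and no overlap between groups (the 2 with the smallest p where none was called), with the 3 profiles most like Myc and like the most changed antagonist. Other list genes (Ccnd2, E2f2, Dak, Arrdc4, Pklr, Sin3a, Sin3b, Fbxw7, Mycl1, Mlxipl, Zcwpw1, Klf2, Ndrg2, Thbs1, Cebpa) were named after their values were seen. Alternatives were other pseudocounts (0.1, 0.5 and 5), other filters, 4 rescalings, no trend, robust moderation, array weights, a replicate block, all rows kept and leaving out each library.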

Additional observations from a re-analysis of the deposited data

How the results depend on the processing

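Of the 10 network genes 4 were called higher (23.3% of all genes), and 2 with a filter of at least 5 FPKM, which leaves fewer genes tested. With that filter 1364 of the 7067 genes tested were called higher. The number called lower was 4 (42.0% of all genes), and 2 after quantile normalization (33.1%) and 2 after median-of-ratios rescaling (32.7%). It was 0 with equal totals (10.1%) and 0 without small RNA (20.6%), where fewer of all genes were called lower too. The cause was not tested. Genes called over the whole table fell from 6479 to 3026 with equal totals. Summed FPKM ran from 314192 (NULL C) to 581658 (WT C), and small RNA genes held 6.05% (WT A) to 31.5% (WT C) of it. The factors for equal totals thus also differed within groups, from 0.922 to 1.42 in WT and from 0.767 to 1.03 in NULL. The part of this spread in the lost calls was not tested. The change of Mlx turned to 0.022 with equal totals and 0.12 without small RNA, that of Hcfc1 to 0.067 after quantile normalization and to 0.047 and 0.14 likewise, and that of Ctcf to 0.088 after quantile normalization and 0.050 with equal totals without small RNA. Of the genes activated by MYC 1 was called higher, and 0 with a filter of at least 5 FPKM. It was 2 with equal quantiles (28.5% of all genes) and 2 with equal totals without small RNA (45.2%).

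The log2 difference in the ratio of activators to antagonists was -1.30, -0.65 with each gene counted equally on the log2 scale and, in alternatives chosen after seeing the data, -0.18 without Mxd4 and -1.79 without Mycn. Leaving out each library gave changes of -0.17 to 0.22 for Mxd3 and -0.046 to 0.076 for Mga. Same-lettered libraries deviated together only weakly (correlation across genes 0.073 for A, 0.36 for B and 0.13 for C), so the letters were not taken as pairs, although each library correlated best with its own letter. With the replicate block 5844 genes were called, Myc changed by -0.48 (limma adjusted p = 0.00697), and the same 8 network genes were called. No network gene that rose lost its call with other pseudocounts, and depth is known only approximately, which limits statements on genes below 1 FPKM.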
